A study of Mus musculus with 36 samples.

Results

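Lungs of C57BL/6 mice given the dispersant Corexit 9527 together with oil (9527+oil) were compared with lungs of mice given Corexit 9527 alone. The comparison uses 12 of the 36 lung RNA-seq libraries, chosen by their treatment label: 6 mice given Corexit 9527 and 6 given 9527+oil, with 3 female and 3 male mice in each. The other 24 mice had been given saline, oil alone, or a further dispersant, Corexit 9500, with or without oil. Corexit 9527 is an oil dispersant, a mixture of surfactants in a 2-butoxyethanol solvent. Both preparations are called saline accommodated fractions (SAF) in the published methods and WAF in the labels, but these mixtures with saline hardly separated and were given whole, without removal of an aqueous phase, at 0.1 strength on days 0, 7 and 13, and lungs were taken on day 14. Mice were 8 weeks old at the first dose. Each dose was 50 µL, given by oropharyngeal aspiration in the published methods and by intratracheal instillation in the labels. The dispersant was mixed with saline in the same proportion with and without oil. Each library was the left lung of 1 mouse. According to the series' design text the sexes were treated separately, and they sit in separate count tables, so sex, treatment run and table cannot be told apart.

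The lung of a healthy adult mouse renews slowly, and few of its cells are in the cell cycle at a given time. Injury to the airway or alveolar lining draws epithelial, endothelial and immune cells into division: genes for DNA replication are transcribed as cells enter S phase, and genes for the mitotic spindle follow in G2 and M phase. Injured airway epithelium can also take on a squamous pattern with small proline-rich proteins and make more mucus, and macrophages can turn to a program with resistin-like and chitinase-like proteins.

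Library totals ran from 17650391 to 30010950 counts. In female Corexit 9527 mouse 11, mitochondrially encoded genes took 38.39% of the counts (95% Wilson interval 38.37 to 38.42%, counting error only), against 5.4 to 9.5% in the other 11, and GC-rich genes lay 2.67 below GC-poor genes on the log2 scale, against a range of -0.53 to 0.18. Main results are given with and without this mouse. Among the 24 mice outside the comparison, mitochondrially encoded genes took 45.11% in saline female mouse 3, 22.56% in oil female mouse 6 and 20.67% in 9500+oil female mouse 14, with GC differences of -2.61, -1.98 and -1.98. Lung markers were present in the 12 libraries, with a summed level of alveolar type 2 cell markers from 18800 to 30100 CPM (counts per 1000000 counts, after scaling of library sizes) in the Corexit 9527 mice and from 19500 to 24400 CPM in the 9527+oil mice.

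Lungs given 9527+oil had lower levels of many cell division genes than lungs given Corexit 9527 alone. They also had lower levels of single genes of squamous epithelium, mucus and alternative macrophage activation (Sprr1a, Slc26a4, Retnla). The same held for single genes of secreted proteins (Mmp12, Tnc, Timp1), not for such genes as a group. Of 15189 genes tested, 80 were lower with 9527+oil (0.527% of genes tested) and 8 were higher (0.0527%) at an adjusted p under 0.05 (edgeR quasi-likelihood test with sex as a covariate, Benjamini-Hochberg adjustment). The median log2 fold change of the 80 genes was -1.55. In 78 of the 80, the levels did not overlap between the treatments within either sex, and the same held for all 8 higher genes. Over all genes tested, 3.22% lay lower and 3.0% higher without overlap in both sexes. In bulk lung RNA, fewer cells of a type and less RNA per cell cannot be told apart.

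**Figure D1:**
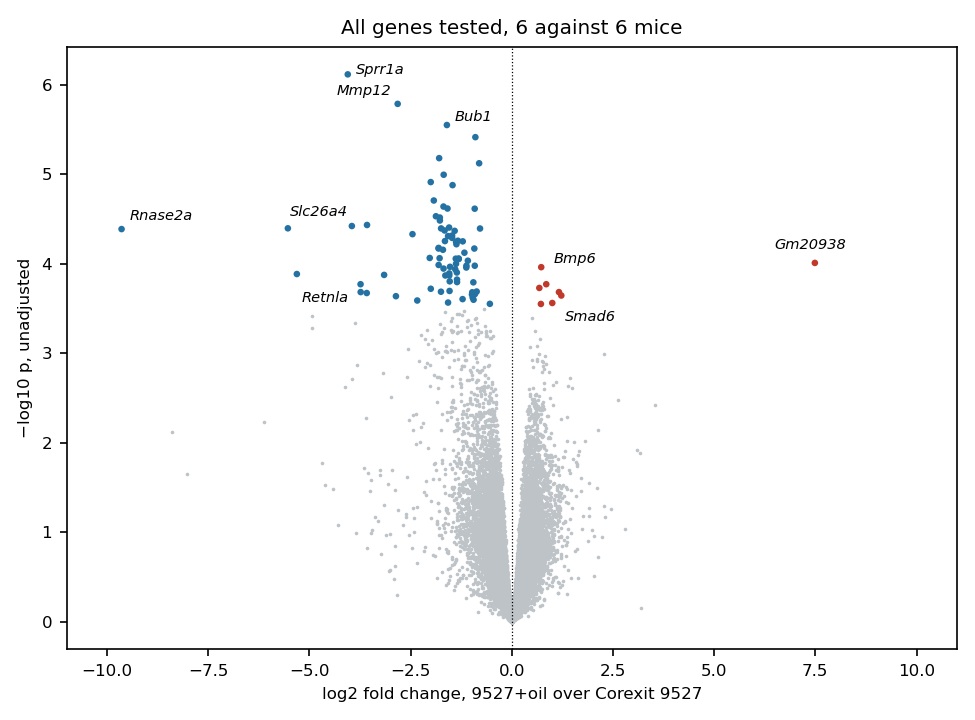
Each point is 1 of 15189 genes tested, with the log2 fold change of 9527+oil over Corexit 9527 on the x axis and the -log10 unadjusted p on the y axis (6 against 6 mice). The 80 genes lower with 9527+oil are in blue and the 8 higher genes in red. Rnase2a and Gm20938 lie far out because 1 group was at or near 0 counts, so their x positions are not estimates of size.

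The number of calls moved with single libraries. Without Corexit 9527 female mouse 11, 657 genes were lower (4.27% of 15393 tested) and 393 higher (2.55%), and all 88 genes called with 12 mice were called again. Each of those 88 also passed when mouse 11 and any 1 of the other 11 mice were left out. With mouse 11 kept in, leaving out Corexit 9527 male mouse 12 gave 15 higher and 116 lower genes. Leaving out any other single mouse removed most calls, with 0 higher and 0 to 13 lower genes left. No gene passed without 9527+oil female mouse 16 or without 9527+oil male mouse 16. The direction of all 88 genes was the same in each of these fits.

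**Figure D2:**
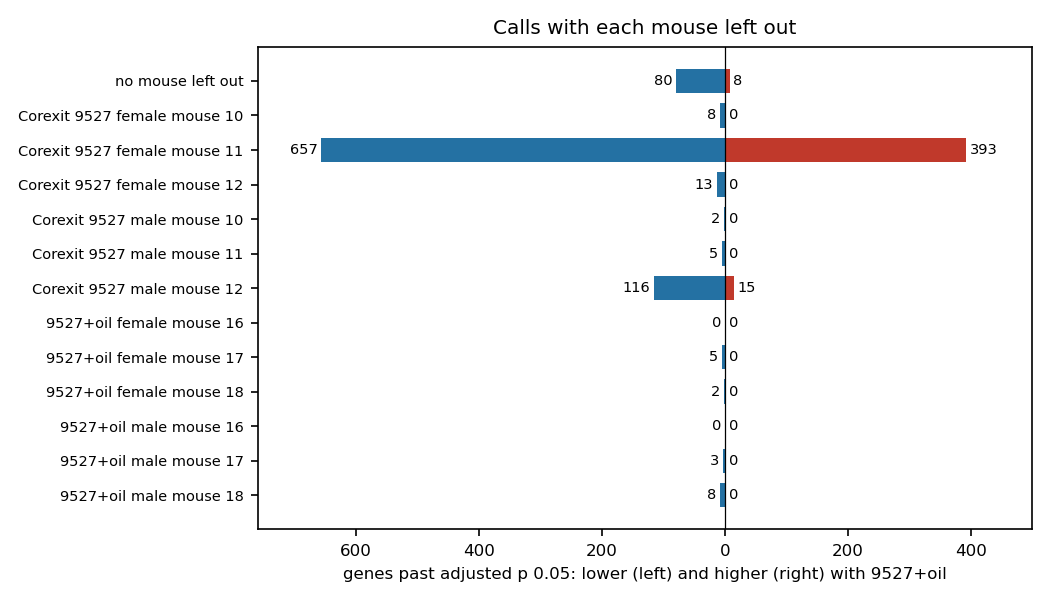
Bars give the number of genes past an adjusted p of 0.05 (x axis, genes lower with 9527+oil to the left and higher to the right) for the 12 mice together (top) and for the 11 that remain when the named mouse is omitted. The counts rise to 657 and 393 without Corexit 9527 female mouse 11 and fall to 0 without either 9527+oil mouse 16.

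Sprr1a, a small proline-rich protein of the cornified envelope that squamous epithelium makes, had the smallest p (chr3:92483952-92485895 in GRCm38). It was at 10.4, 20.0 and 42.6 CPM (lowest, median and highest) in the 6 Corexit 9527 mice and at 0.436, 1.33 and 1.91 CPM in the 6 mice given 9527+oil. The lowest Corexit 9527 mouse was thus well above the highest 9527+oil mouse. The log2 fold change was -4.05 ± 0.43 (SE, n = 6 and 6; adjusted p = 0.0116, edgeR), and the saline and oil groups had medians of 1.4 and 1.19 CPM. Mmp12, the macrophage elastase (chr9:7344381-7369499), went from 23.5, 49.1 and 88.7 CPM with Corexit 9527 to 6.01, 6.64 and 9.05 CPM with 9527+oil. Its log2 fold change was -2.82 ± 0.32 (adjusted p = 0.0124), again without overlap.

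**Figure D3:**
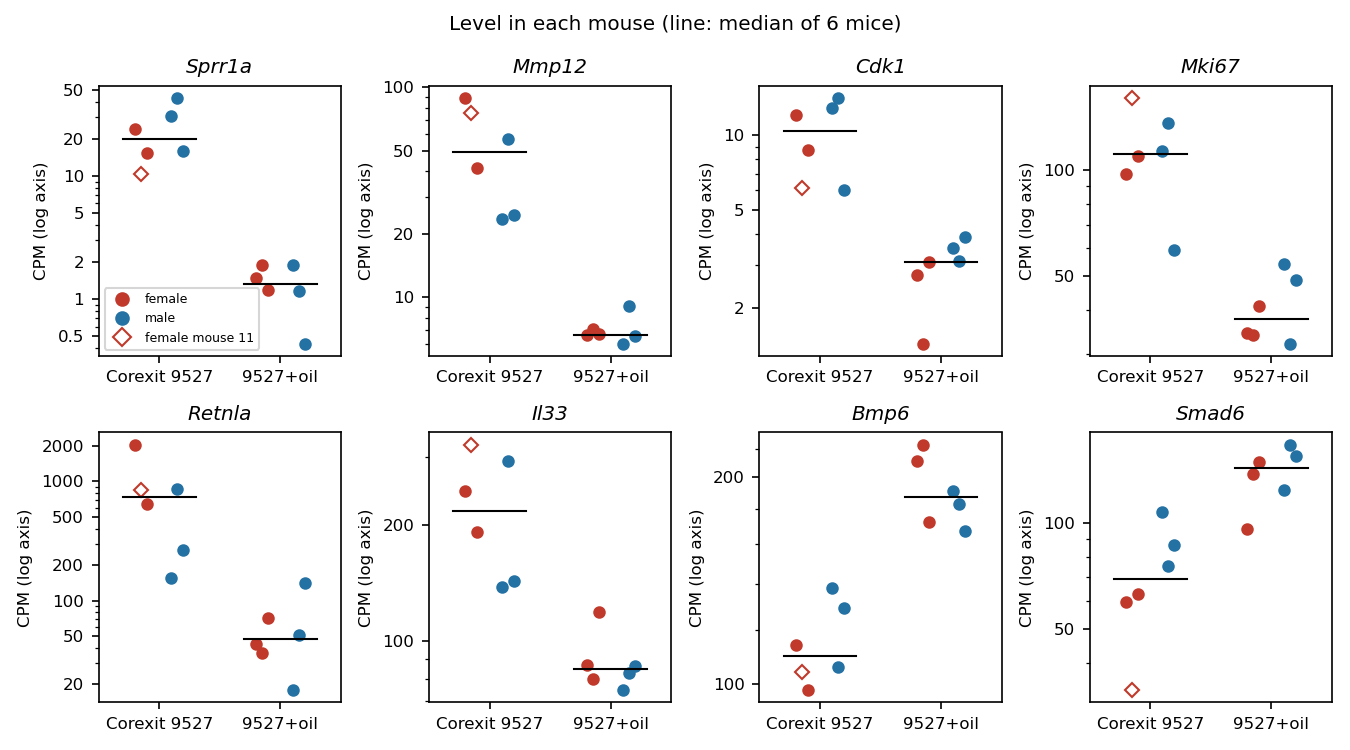
Level of 8 genes in each of the 12 mice (y axis, CPM on a log axis; x axis, treatment; red, female; blue, male; open diamond, Corexit 9527 female mouse 11; line, median of 6). For Sprr1a, Mmp12, Cdk1, Mki67, Retnla and Il33 each 9527+oil mouse lies below each Corexit 9527 mouse, for Bmp6 each lies above, and for Smad6 the ranges overlap across sexes (33.6 to 107 and 95.7 to 166 CPM).

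Cell division genes made up the largest share of the calls. Across 7 overlapping lists that cover replication, S phase repair, cyclins and mitosis, 155 of 163 tested members lay lower with 9527+oil, with a median log2 fold change of -1.07 against 0.01 for all genes tested. 42 of the 163 (25.8%) were called lower and 0 higher, against 0.527% of all genes tested. Without mouse 11, 129 (79.1%) were lower, against 4.27% of all genes tested, and 0 higher. In the female and male mice taken separately the median was -1.17 and -0.91.

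Mitotic genes were the most numerous among the calls. All 34 kinesin, kinetochore and spindle checkpoint genes lay lower (median -1.33), 12 passed with 12 mice and 30 without mouse 11. Bub1, a kinase of the spindle checkpoint, was at 6.48, 8.75 and 10.3 CPM with Corexit 9527 and at 1.85, 2.76 and 3.66 CPM with 9527+oil. Its log2 fold change was -1.6 ± 0.19 (adjusted p = 0.0142). Hmmr, a spindle-associated hyaluronan receptor, had medians of 11.2 and 3.26 CPM and fell by 1.93 ± 0.28 on the log2 scale (adjusted p = 0.026). Kif20a, a kinesin of the central spindle, had medians of 16.2 and 5.66 CPM (-1.59 ± 0.24, adjusted p = 0.026). Of 29 genes for mitotic kinases, the anaphase-promoting complex, condensin and cytokinesis, 28 lay lower, and 10 passed with 12 mice and 27 without mouse 11, among them Birc5 of the chromosomal passenger complex (medians 12.2 and 4.38 CPM), Cep55 of the cytokinetic midbody (9.89 and 2.92 CPM) and the kinase Plk1 (9.89 and 5.54 CPM). Mki67, the gene of the Ki-67 proliferation antigen, was at 59.5, 111 and 160 CPM with Corexit 9527 and at 32.2, 37.9 and 54.1 CPM with 9527+oil (-1.48 ± 0.24, adjusted p = 0.0262). Pttg1, the securin, was the member that lay higher. It did not pass the test.

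Among cyclins, cyclin-dependent kinases and their regulators, 22 of 26 lay lower (median -0.58). Cdk1, the kinase that drives entry into mitosis, was at 6.0, 10.4 and 14.1 CPM with Corexit 9527 and at 1.44, 3.09 and 3.89 CPM with 9527+oil (-1.78 ± 0.27, adjusted p = 0.026). Its partners Ccnb1 (medians 9.02 and 2.43 CPM) and Ccna2 (28.9 and 9.42 CPM) fell by 1.80 and 1.69. These 3 of the 26 members passed, and 14 did so without mouse 11, all lower. The 4 members that lay higher were Ccnd2, Ccnd3, Cdk6 and E2f2, mostly genes of G1 phase, and none of these passed.

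Replication genes lay lower as well. All 21 members for origin licensing lay lower (median -0.90), 2 passed (Mcm7 of the replicative helicase and Cdc45, which activates it) and 19 did so without mouse 11. Mcm7 was at 30.4, 49.9 and 63.5 CPM with Corexit 9527 and at 22.4, 25.7 and 31.3 CPM with 9527+oil, a small overlap (-0.91 ± 0.17, adjusted p = 0.0428). Of 28 genes for DNA polymerases, the fork and nucleotide supply, 25 lay lower (median -0.67), and 19 passed without mouse 11. The 5 that passed with 12 mice were Rrm1 and Rrm2 (ribonucleotide reductase), Tyms (thymidylate synthase), Prim1 (primase) and Lig1 (DNA ligase). Rrm2 was at 10.8, 17.2 and 27.5 CPM with Corexit 9527 and at 5.84, 7.68 and 8.93 CPM with 9527+oil (-1.38 ± 0.23, adjusted p = 0.0262). Pcna, the sliding clamp, had medians of 101 and 53.4 CPM but missed the threshold with 12 mice (adjusted p = 0.0943) and passed without mouse 11 (0.0198).

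S phase checkpoint, repair and chromatin assembly genes lay lower in 25 of 25 members (median -1.23), with 10 past the threshold and 20 without mouse 11. The study had picked 11 genes of this kind for PCR from these Corexit 9527 mice against saline, so their direction here is not independent evidence. All 11 lay lower with 9527+oil (median -1.62), 5 passed and 9 did so without mouse 11. Those 5 were Dtl, a substrate adaptor for degradation on chromatin (medians 8.64 and 2.6 CPM, -1.88 ± 0.29), Clspn, the claspin adaptor of CHK1 (13.2 and 3.88 CPM, -1.78 ± 0.27), Uhrf1, which carries DNA methylation through replication (30.5 and 9.43 CPM, -1.70 ± 0.28), Pclaf, a PCNA-binding factor listed as 2810417H13Rik (18.1 and 4.62 CPM, -2.0 ± 0.28), and Chaf1b of chromatin assembly factor 1 (12.2 and 4.86 CPM, -1.22 ± 0.24). Chek1 (-1.62 ± 0.37, adjusted p = 0.0913), Rad51ap1 (-1.81 ± 0.42, 0.0922), Ticrr (-1.28 ± 0.32, 0.132) and Fen1 (-0.55 ± 0.44, 0.512) passed only without mouse 11. The adjusted p of Chek2 was 0.273 and 0.0501 with and without that mouse, and that of Bard1 was 0.282 and 0.0995.

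Among 26 tested targets of p53, the damage-response transcription factor, 17 lay lower with a median of -0.14, and 0 passed with 12 mice. Cdkn1a, the p21 inhibitor of cyclin-dependent kinases, was at 25.4, 80.7 and 125 CPM with Corexit 9527 and at 54.0, 68.7 and 135 CPM with 9527+oil, with a log2 fold change of -0.01 ± 0.25 (adjusted p = 0.981) whose sign changed between fits. Without mouse 11, 3 of the 26 were lower (Psrc1, Polk and Ccng1), against 4.27% of all genes tested. Replication-dependent histone genes, which lack a poly(A) tail and are poorly read in poly(A)-selected libraries, had a median of 0.40 over 16 tested members and 0 calls.

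Promoters of the cell division genes are printed because these genes moved together. The windows are the 150 bases before the RefSeq start in GRCm38.p6, read along the gene, with 3 motifs in capitals: CCAAT (the NF-Y box), TTTGAA or TTCGAA (the cell cycle homology region) and TTTCCCGC, TTTCGCGC, TTTGCCGC or TTTGGCGC (an E2F site), searched on both strands, with no overlap between the motifs shown. Cdk1 (minus strand, chr10:69352913-69353062), Bub1 (minus strand, chr2:127831860-127832009) and Hmmr (minus strand, chr11:40733438-40733587) stand for mitosis, and Mcm7 (minus strand, chr5:138171884-138172033) and Dtl (minus strand, chr1:191575545-191575694) for S phase.
Cdk1: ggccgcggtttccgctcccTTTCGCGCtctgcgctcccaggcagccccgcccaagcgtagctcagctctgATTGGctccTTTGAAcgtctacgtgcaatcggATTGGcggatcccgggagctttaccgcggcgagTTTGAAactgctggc
Bub1: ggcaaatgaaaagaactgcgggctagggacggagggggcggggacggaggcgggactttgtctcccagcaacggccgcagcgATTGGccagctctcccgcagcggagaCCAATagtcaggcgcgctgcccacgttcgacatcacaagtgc
Hmmr: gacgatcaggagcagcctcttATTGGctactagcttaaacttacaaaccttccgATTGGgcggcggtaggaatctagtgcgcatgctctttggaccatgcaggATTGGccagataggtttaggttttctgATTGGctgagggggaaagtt
Mcm7: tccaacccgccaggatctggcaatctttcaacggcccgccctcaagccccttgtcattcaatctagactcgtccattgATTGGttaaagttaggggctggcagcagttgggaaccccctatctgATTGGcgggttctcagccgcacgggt
Dtl: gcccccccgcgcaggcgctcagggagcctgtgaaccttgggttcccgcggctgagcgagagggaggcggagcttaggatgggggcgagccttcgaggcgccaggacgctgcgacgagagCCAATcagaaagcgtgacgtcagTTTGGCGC

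CCAAT boxes lie 2 or more times in the Cdk1, Bub1, Hmmr and Mcm7 windows and 4 times in that of Hmmr. Of the 42 cell division genes called lower, 36 had RefSeq windows, 43 in all, and 60.5% of those windows held CCAAT, 23.3% the cell cycle homology region and 9.3% an E2F site. The shares over all 32851 windows of the same length were 24.5%, 9.7% and 1.24%, and over the 14060 windows of the genes tested 26.3%, 6.46% and 1.96%. Over the 151 windows of all tested cell division genes, called or not, they were 57.0%, 19.9% and 10.6%. For the 38 other genes called lower, 30 had windows and the shares were 27.0%, 10.8% and 2.7%. A match is a stretch of letters and not evidence of binding.

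Squamous and airway injury genes lay lower in 14 of 15 tested members (median -0.64). Sprr1a and Ereg passed with 12 mice (0.527% of all genes tested were lower), and 11 of the 15 did so without mouse 11 (4.27% of all genes tested). Ereg, the epidermal growth factor receptor ligand epiregulin, was at 0.913, 3.29 and 8.5 CPM with Corexit 9527 and at 0.0927, 0.28 and 0.506 CPM with 9527+oil (-3.95 ± 0.62, adjusted p = 0.026). Areg, a ligand of the same receptor, had medians of 10.8 and 5.49 CPM (adjusted p = 0.19 with 12 mice and 0.0446 without mouse 11). The simple epithelial keratins Krt8 (medians 233 and 124 CPM) and Krt19 (271 and 155 CPM) passed only without mouse 11, in which both were lowest, at 60.2 and 54.4 CPM.

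Of 12 tested goblet cell and mucus genes, 10 lay lower (median -0.62), 1 of 12 passed with 12 mice, against 0.527% of all genes tested, and 4 of 12 without mouse 11, against 4.27%. Slc26a4, the anion exchanger pendrin of airway epithelium, was at 14.0, 19.6 and 80.8 CPM with Corexit 9527 and at 1.62, 2.63 and 5.79 CPM with 9527+oil (-3.58 ± 0.56, adjusted p = 0.026). Muc5ac, the mucin of goblet cells, had medians of 47.6 and 12.8 CPM (-2.09 ± 0.45) and an adjusted p of 0.0716, or 0.014 without mouse 11, in which it was highest at 138 CPM. Agr2, which folds mucins, had medians of 8.45 and 2.08 CPM (adjusted p = 0.175 and 0.0397). Muc5b, the resident airway mucin, had medians of 377 and 356 CPM and a log2 fold change of -0.03 ± 0.21 (adjusted p = 0.944). The summed level of the 14 genes of this list in the tables was 604 to 1280 CPM with Corexit 9527 and 526 to 974 CPM with 9527+oil, which overlapped.

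Genes of alternative macrophage activation lay lower in 13 of 15 tested members (median -1.0), of which 2 passed with 12 mice, against 0.527% of all genes tested. Without mouse 11, 7 of 16 tested passed, against 4.27%. Retnla, the resistin-like molecule alpha, was at 156, 745 and 2030 CPM with Corexit 9527 and at 17.7, 47.3 and 141 CPM with 9527+oil (-3.58 ± 0.68, adjusted p = 0.0424). The mice given Corexit 9527 themselves spread over more than a 10-fold range. The chitinase-like Chil3 had medians of 943 and 265 CPM (-1.68 ± 0.36, adjusted p = 0.0716) and the lectin Mgl2 of 39.5 and 20.3 CPM (-1.08 ± 0.22, 0.0642), and both passed without mouse 11. Il33, an epithelial alarmin, was at 138, 217 and 322 CPM with Corexit 9527 and at 74.7, 84.6 and 119 CPM with 9527+oil (-1.33 ± 0.22, adjusted p = 0.0262). It was the 1 call with 12 mice in a separate list of 15 tested cytokine genes, against 0.527% of all genes tested. Of those 15, 6 lay higher and 9 lower (median -0.28). Rnase2a, a ribonuclease of the eosinophil-associated family, was at 0.0931, 3.58 and 74.3 CPM with Corexit 9527, where mouse 11 was highest, and had 2 counts in all over the 6 libraries of 9527+oil (adjusted p = 0.026). Reads of this gene family can be shared between near-identical copies, so its value is uncertain and no fold is given.

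Of 26 macrophage markers, 22 lay lower (median -0.26), 0 passed with 12 mice and 5 without mouse 11 (4.27% of all genes tested). Their summed level was 2310 to 3460 CPM with Corexit 9527 and 2370 to 2600 CPM with 9527+oil. The part of macrophage number in the results above was not tested. Of 27 lysosomal genes 12 lay higher and 15 lower with 12 mice (median -0.02), and 1 was called lower, against 0.527% of all genes tested. Without mouse 11, 6 lay higher and 21 lower (median -0.13), and 7 were called lower, against 4.27%. The call with 12 mice was Ctsc, the protease that activates granule serine proteases (medians 406 and 281 CPM, -0.54 ± 0.11, adjusted p = 0.0485). Ctsk (46.3 and 18.9 CPM) and Ctss (313 and 185 CPM) missed the threshold with 12 mice (adjusted p = 0.0611 and 0.083) and passed without mouse 11.

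Matrix and secreted genes were called in part. Tnc, the matrix protein tenascin-C, was at 79.4, 104 and 411 CPM with Corexit 9527 and at 19.5, 23.3 and 37.8 CPM with 9527+oil (-2.45 ± 0.39, adjusted p = 0.0262). Spp1, osteopontin, had medians of 70.5 and 33.4 CPM (-1.37 ± 0.23, adjusted p = 0.027), and Timp1, an inhibitor of metalloproteinases, of 28.9 and 10.6 CPM (-2.34 ± 0.45, 0.0464). Mmp12 and Timp1 were the 2 calls of a list of 18 tested metalloproteinases and inhibitors in which 11 lay higher and 7 lower (median 0.21). Over all genes tested, 0.527% were called lower with 12 mice. Without mouse 11, 3 of the 18 were lower (4.27% of all genes tested) and Mmp9 was higher (2.55%). Serpina3n, an acute phase protease inhibitor, was at 288, 366 and 475 CPM and at 127, 163 and 234 CPM (-1.12 ± 0.20, adjusted p = 0.0316). It was the 1 call among 14 tested acute phase and secreted defense genes (0.527% of all genes tested were lower), of which 7 lay higher and 7 lower (median -0.04). Without mouse 11, 4 lay higher and 10 lower (median -0.18). Lcn2 was then called lower as well, 2 of the 14 in all, against 4.27% of all genes tested. The fibrillar collagen Col3a1 had medians of 1260 and 803 CPM and did not pass with 12 mice (adjusted p = 0.11). Over 20 matrix genes the median was -0.25. Tnc and Spp1 were the calls with 12 mice, and without mouse 11 Col3a1, Col1a2, Col5a2 and Sparc were lower as well, 6 of 20 in all (4.27% of all genes tested).

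Cholesterol synthesis genes lay lower in 17 of 23 tested members (median -0.23), and 1 was called lower with 12 mice, against 0.527% of all genes tested. Cyp51, the lanosterol demethylase, passed (medians 55.2 and 29.6 CPM, -0.87 ± 0.16, adjusted p = 0.0421), and without mouse 11 8 members were lower, against 4.27% of all genes tested, and 0 higher, Hmgcs1 of the first committed steps among them (106 and 62.4 CPM). Other genes called lower were Tfrc, the transferrin receptor (68.9, 82.5 and 88.5 CPM against 42.2, 46.4 and 48.1 CPM, -0.81 ± 0.11, adjusted p = 0.019), Mal, a raft proteolipid of epithelial apical transport (54.2, 55.8 and 59.4 CPM against 25.8, 29.9 and 36.6 CPM, -0.90 ± 0.11, adjusted p = 0.0146), and Lrp2, the endocytic receptor megalin (medians 148 and 75.2 CPM, -0.92 ± 0.14, adjusted p = 0.026). In Mal the 6 Corexit 9527 mice lay within a narrow range, mouse 11 included.

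**Figure D4:**
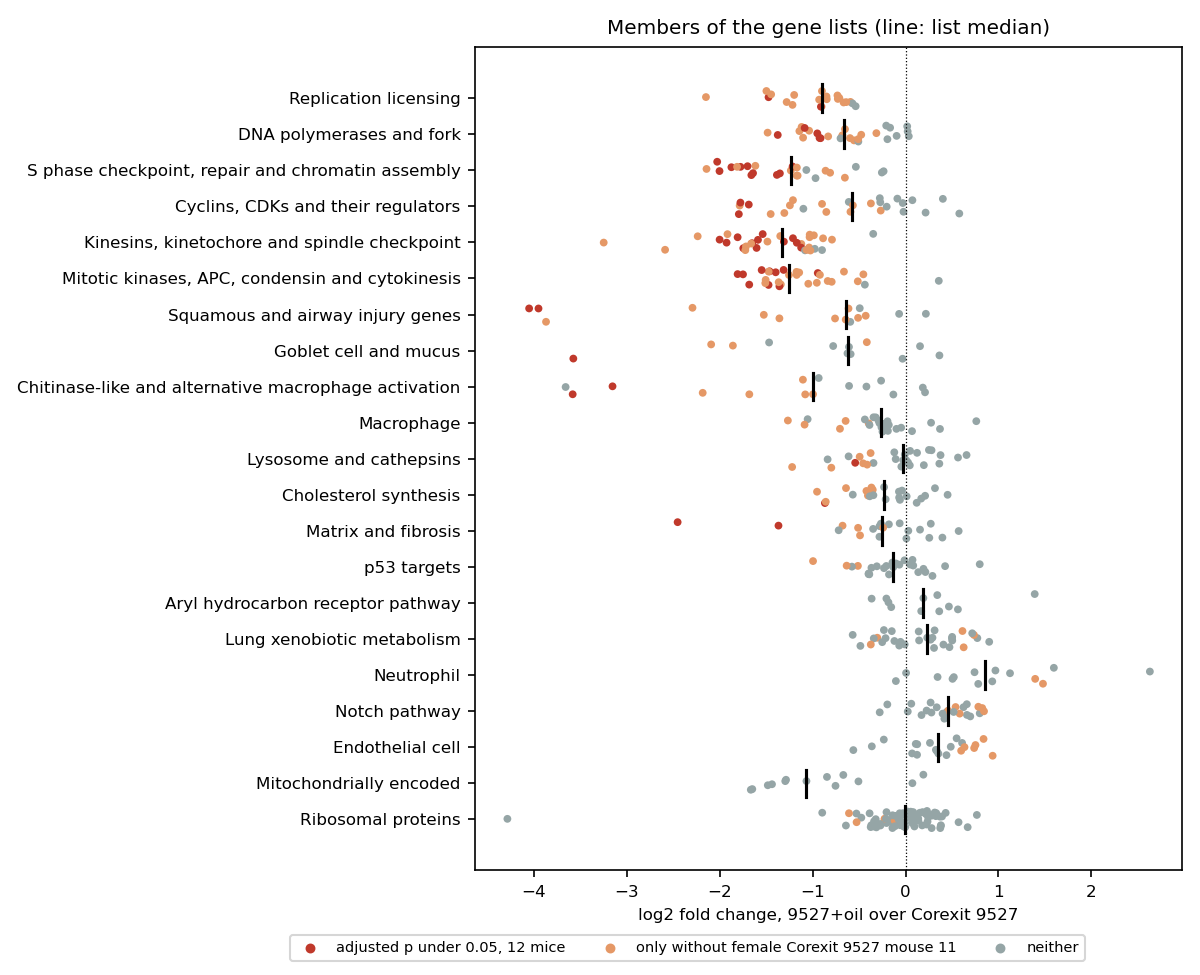
Log2 fold change of 9527+oil over Corexit 9527 (x axis) for each tested member of 21 gene lists (rows), with a line at the list median. Red points passed an adjusted p of 0.05 with 12 mice, orange points only without Corexit 9527 female mouse 11, and gray points in neither. The 6 cell division lists lie almost wholly to the left of 0, with medians from -0.58 to -1.33, while the Notch and endothelial lists lie mostly to the right, with medians of 0.45 and 0.35.

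The 8 genes that were higher with 9527+oil had log2 fold changes from 0.68 to 1.22 in 7 cases, and Gm20938 was at 0 in 1 group. Bmp6, a bone morphogenetic protein (chr13:38345107-38500302), was at 98.0, 110 and 138 CPM with Corexit 9527 and at 167, 187 and 223 CPM with 9527+oil (0.73 ± 0.13, adjusted p = 0.0316). Smad6, an inhibitory SMAD of that pathway, was at 33.6, 69.2 and 107 CPM and at 95.7, 143 and 166 CPM (1.00 ± 0.20, adjusted p = 0.0484), and its lowest value came from mouse 11. Foxf1, a transcription factor of lung mesenchyme and endothelium, had medians of 185 and 307 CPM (0.72 ± 0.14, adjusted p = 0.0485) and Il6ra, the interleukin 6 receptor, of 30.6 and 48.4 CPM (0.68 ± 0.13, 0.0416). Dpysl5 (10.0 and 18.8 CPM), Faim2 (15.7 and 33.1 CPM) and Colq (18.7 and 44.9 CPM) made up the rest with Gm20938, a gene model on chromosome 4 with no function given here. Gm20938 had 0 counts in the 6 Corexit 9527 mice and 136 in the 6 mice of 9527+oil, at least 44.4-fold higher when 3 counts over the group stand for the 0, and reads of such a gene model can be shared with near-identical copies.

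Notch pathway genes lay higher in 23 of 25 tested members (median 0.45), with 0 calls from 12 mice. Without mouse 11 the median was 0.31, and Notch1, Notch2, Notch3, Notch4, Lfng and Nrarp passed (6 of 25, against 2.55% of all genes tested). Notch1 was at 70.1, 236 and 266 CPM with Corexit 9527, the lowest in mouse 11, and at 331, 352 and 476 CPM with 9527+oil (0.84 ± 0.26, adjusted p = 0.211, and 0.0106 without mouse 11). Endothelial markers lay higher in 18 of 21 (median 0.35, and 0.29 without mouse 11). Their summed level was 6490 to 8170 CPM with Corexit 9527 and 8650 to 10100 CPM with 9527+oil, without overlap. Of these, 0 passed with 12 mice and 6 of 21 without mouse 11 (2.55% of all genes tested), among them Cdh5, VE-cadherin (medians 1140 and 1640 CPM), and Robo4 (75.8 and 140 CPM). Of 11 smooth muscle and pericyte markers, 11 lay higher with 12 mice (median 0.27) but 8 higher and 3 lower without mouse 11 (median 0.22), with 0 calls and 1 call. Club cell markers lay higher in 6 of 7 (median 0.38, and 0.3 without mouse 11), with Cyp2f2, the main cytochrome P450 of these cells, at medians of 1940 and 3090 CPM (adjusted p = 0.194, and 0.0448 without mouse 11).

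Genes of the aryl hydrocarbon receptor, which polycyclic aromatic hydrocarbons of oil can activate, had a median of 0.19 over 11 tested members, and 0 passed with 12 mice or without mouse 11. Cyp1a1, its main target, was at 3.0, 5.99 and 245 CPM with Corexit 9527 and at 5.37, 19.0 and 204 CPM with 9527+oil (1.39 ± 1.18, adjusted p = 0.537). In each group 1 male mouse was far above the rest, Corexit 9527 male mouse 12 at 245 CPM and 9527+oil male mouse 16 at 204 CPM, and 9527+oil female mouse 16 was at 66.3 CPM. Cyp1b1, another target, had medians of 11.6 and 12.8 CPM (adjusted p = 0.735). Nrf2 targets and metallothioneins had a median of 0.01 over 22 members with 0 calls from 12 mice. Without mouse 11 their median was -0.13, with 8 higher and 14 lower, and 5 of the 22 were called lower, against 4.27% of all genes tested. Interferon-induced genes had a median of 0.02 over 27 with 0 calls. Mitochondrially encoded genes had a median of -1.07 with 12 mice and -0.13 without mouse 11.

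Of 14 tested neutrophil markers 13 lay higher (median 0.86), with 0 calls from 12 mice and 2 of 14 without mouse 11 (Csf3r and Mmp9), against 2.55% of all genes tested. The summed level of the list was 150 to 323 CPM with Corexit 9527, 214 to 270 CPM in the female 9527+oil mice and 282 to 1430 CPM in the male ones. S100a8, a calprotectin subunit, was at 22.4, 189 and 235 CPM in the 3 male 9527+oil mice (16, 17 and 18) and at 11.2 to 32.7 CPM in the female ones. Csf3r, the granulocyte colony-stimulating factor receptor, was at 372 and 514 CPM in the same mice 17 and 18, against at most 139 CPM in the other 10. The median of the list was 1.74 in male and -0.19 in female mice, or 0.33 in female mice without mouse 11, and no member passed the test of that difference.

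**Figure D5:**
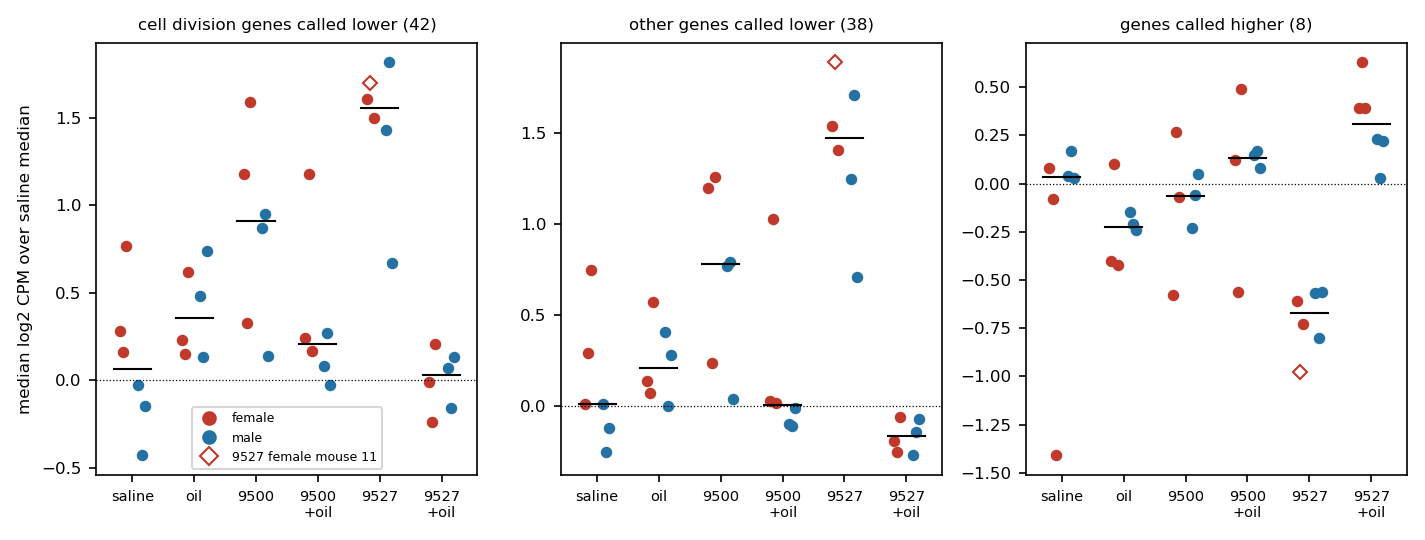
For each of the 36 mice (red, female; blue, male; open diamond, Corexit 9527 female mouse 11) the y axis gives the median log2 CPM over the called genes, relative to the median of the 6 saline mice, by treatment on the x axis, for the 42 cell division genes called lower, the 38 other genes called lower and the 8 called higher (line, median of 6). The Corexit 9527 and 9527+oil columns chose the genes. For the cell division genes the medians are 0.06 with saline, 0.36 with oil and 0.91 with Corexit 9500, and for the genes called higher 0.04, -0.22 and -0.06.

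Levels in the other groups place these genes, as a description with no test, since the genes were called in this comparison. Relative to the saline median, the per-mouse median of the 42 cell division genes was 0.67 to 1.82 (log2) in the Corexit 9527 mice and -0.24 to 0.21 in the 9527+oil mice. It was -0.43 to 0.77 in the saline mice, where the highest was female mouse 3 with its high mitochondrial share and the next was at 0.28, and 0.13 to 0.74 in the oil mice. The Corexit 9500 mice ranged from 0.14 to 1.59 and the 9500+oil mice from -0.03 to 1.18, where the highest was female mouse 14 and the next was at 0.27. For the 38 other genes called lower, the medians were 1.48 with Corexit 9527, -0.16 with 9527+oil and 0.21 with oil. For the 8 higher genes they were -0.67, 0.31 and -0.22. The saline mice ranged from -1.41 to 0.17 for these 8 genes. Saline female mouse 3, at -1.41, lay below the Corexit 9527 mice (-0.98 to -0.56), and the other 5 saline mice, from -0.08 to 0.17, lay above them.

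Within 1 sex the 3 against 3 comparison had few calls. In female mice 0 of 14988 genes passed (997 had an unadjusted p under 0.05, and DESeq2 called 161), while without mouse 11 18 were higher and 98 lower (0.757% of 15320). In male mice 2 of 14880 passed (0.0134%). The zinc finger gene model Gm14288 was at 0 to 0.0904 CPM in the Corexit 9527 males and at 8.65 to 11.9 CPM in the 9527+oil males (adjusted p = 0.00926), while of the Corexit 9527 females mice 10 and 12 were at 11.9 and 14.3 CPM and mouse 11 at 0. The processed pseudogene Gm13835 was at 5.28 to 16.7 CPM in the Corexit 9527 males and at 0 to 0.0508 CPM in the 9527+oil males (adjusted p = 0.0493). Reads of such gene models can be shared with near-identical copies, so both are uncertain. The 80 genes called lower over both sexes had a negative fitted change in 79 female and 76 male fits, with the few remaining genes too low to be tested in that sex.

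The test of a difference between the sexes found 0 of 15396 genes (412 had an unadjusted p under 0.05, the lowest adjusted p was 0.779, and DESeq2 called 8). Without mouse 11 it found 2, Gm14288 and Krcc1. Sprr1a fell by 3.46 in female and 4.68 in male mice, Mmp12 by 3.37 and 2.30, Retnla by 4.57 and 2.62, and Bmp6 rose by 0.91 and 0.53, all on the log2 scale. With 3 mice a side, the absence of a call does not show that the sexes responded alike.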

How the data were processed

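Left lung RNA of 36 mice was sequenced by the authors from stranded poly(A)-selected libraries (RNA integrity number of at least 8.0). The deposited values are estimated counts (expected counts) per gene, which the authors made with Salmon on GRCm38 and deposited as whole numbers in 1 table per sex. The lowest row sum was 10, so a low-count filter had been applied. The version of the tool was not given in the sources used here.

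The tables were joined on gene symbol (18120 and 18295 rows, 17716 genes in both, 975 in 1 only). In each, 4 rows shared a name and were left out, and 24 rows held a date in place of a name. The join removed at most 0.0308% of a library. Counts of 9527+oil and Corexit 9527 mice were fitted with edgeR 4.0.16 in R 4.3.3 (filterByExpr, TMM, quasi-likelihood F-test, sex as covariate, Benjamini-Hochberg adjustment at 0.05). Every adjusted p in the text is from this test with 6 against 6 mice unless stated, and SE is the fold change divided by the square root of F. P-values measure the spread between mice. Alternatives used DESeq2 1.42.0 and limma 3.58.1. No pair among 12 pairs of mice of a group agreed within sampling noise (chi-square per gene of at least 12).

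Members and gene lists were chosen with earlier results of these data known. Named genes were up to 15 per direction with the smallest p and a mean of at least 1 log2 CPM, the study's PCR genes with Sprr1a, Mmp12, Kif20a, Cep55 and Hmmr, up to 4 members per list, and up to 5 per direction within a sex. Genes outside that rule (Areg, Cdkn1a, Cyp1a1, Cyp1b1, Gm20938, Krt8, Krt19, Lig1, Muc5b, Pcna, Plk1, Rnase2a and S100a8, and list members named without values) were chosen after their values were seen. Some genes are not reported here.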

Additional observations from a re-analysis of the deposited data

Results flagged for a closer look

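For 76 genes and 3 library measures, the highest or lowest of the 6 mice of a treatment was compared with the other 5 by Dixon's test. Of 158 groups tested, 20 held such a mouse. Chance gives about 1 in 20 groups when the 6 values come from 1 normal distribution. The groups here pooled both sexes, with CPM not on a log scale, so 20 of 158 is not a test against chance.

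Corexit 9527 female mouse 11 accounted for 9 of the 20. Its mitochondrially encoded share was 38.4% (6.58 to 9.5% in the other Corexit 9527 mice) and its GC-rich genes lay at -2.67 relative to GC-poor genes (log2, -0.53 to 0.16 in the others). It was the highest of its group for Rad51ap1 (9.44 CPM, others 2.35 to 4.21), Bard1 (13.1 CPM, others 2.02 to 5.89), Hmgcs1 (193 CPM, others 78.0 to 113), Colq (36 CPM, others 14.8 to 22.0) and Rnase2a (74.3 CPM, others 0.0931 to 24.0). It was the lowest for Notch1 (70.1 CPM, others 198 to 266) and Robo4 (15.1 CPM, others 71.8 to 101). The part of the library's composition in these levels was not tested.

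Among the other Corexit 9527 mice, male mouse 12 was lowest for Cep55 (5.43 CPM, others 8.89 to 10.7) and Kif15 (2.64 CPM, others 6.13 to 7.6) and highest for Cyp1a1 (245 CPM, others 3.0 to 11.8). Male mouse 11 was highest for Tnc (411 CPM, others 79.4 to 138). Among 9527+oil mice, male mouse 16 was highest for Cyp1a1 (204 CPM, others 5.37 to 66.3), Cyp1b1 (27.6 CPM, others 11.6 to 17.4) and Ticrr (3.25 CPM, others 0.973 to 1.8). Male mouse 17 was highest for Mmp12 (9.05 CPM, others 6.01 to 7.04), female mouse 16 for Pclaf (6.3 CPM, others 4.42 to 5.1), female mouse 17 for Notch1 (476 CPM, others 331 to 370) and female mouse 18 for Il33 (119 CPM, others 74.7 to 86.6).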

How the results depend on the processing

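All 88 genes called with 12 mice kept their direction under each alternative in which they could be fitted, and all 88 were called by DESeq2 and by limma voom with sample quality weights, with or without Corexit 9527 female mouse 11. Other settings lost calls: 70 of the 88 passed with GC content offsets, 77 of 87 fitted in the fit of all 36 mice, 76 of 88 without a filter on low counts, 75 of 83 fitted without a sex term, and 86 with DESeq2 size factors, with upper-quartile normalization or with mitochondrial genes removed. Most calls were lost when 1 mouse was left out and mouse 11 was kept. Then 84 of the 88 passed without Corexit 9527 male mouse 12, and 0 to 13 without any other single mouse. The counts moved as well. Higher and lower genes numbered 8 and 80 in edgeR, 174 and 432 in DESeq2, and 735 and 849 in voom. Without mouse 11, 2 fits chosen after seeing the data gave 936 and 1117 (DESeq2) and 648 and 873 (voom). The fit of all 36 mice called 15 and 144, GC content offsets gave 133 lower genes, and 4 genes were higher both without a filter on low counts and without a sex term. Leaving out 1 mouse gave 393 higher and 657 lower genes for mouse 11 and 15 and 116 for Corexit 9527 male mouse 12. For any other mouse it gave 0 higher and 0 to 13 lower genes. Leaving out mouse 11 and 1 more (also chosen after seeing the data) gave 94 to 954 higher and 283 to 1189 lower genes. In female mice alone, DESeq2 called 161 genes, voom 2377 and the fits without 1 mouse 0 to 116. In male mice these were 272, 28 and 0 to 31 (0 without Corexit 9527 male mouse 10 or 9527+oil male mouse 17, 31 without Corexit 9527 male mouse 12). For the difference between the sexes they were 8, 1 and 0 to 2.

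Cyp1b1 changed sign without 9527+oil male mouse 16 (-0.06 against 0.17) and ranged from -0.06 to 0.49 over the fits that left out 1 or 2 mice. Cdkn1a, at -0.01, moved to 0.00 with at least 10 counts in every mouse, to 0.05 and 0.04 in voom with and without mouse 11, and to between 0.00 and 0.12 (0.00, 0.01, 0.05, 0.08 and 0.12) when single mice were left out, with a range of -0.29 to 0.12 over the fits that left out 1 or 2 mice. The cause of these shifts was not tested. No paired analysis was possible because the mouse numbers of the treatments do not overlap (10 to 12 against 16 to 18).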

Other observations

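Immediate early genes lay higher with 9527+oil in 17 of 22 tested members (median log2 fold change 0.41, and 0.27 without Corexit 9527 female mouse 11). With 12 mice 0 passed, and without Corexit 9527 female mouse 11 the genes Klf2, Nr4a1, Jun and Dusp1 did (2.55% of all genes tested were higher in that fit). Nr4a1, an orphan nuclear receptor, was at 28.1, 51.9 and 64.3 CPM (lowest, median and highest) with Corexit 9527 and at 71.5, 79.3 and 122 CPM with 9527+oil, without overlap (0.80 ± 0.19, adjusted p = 0.112, and 0.00656 without mouse 11, edgeR). Of the endoplasmic reticulum chaperones, Hspa5 (BiP) was at 475, 527 and 608 CPM and at 277, 345 and 414 CPM (-0.66 ± 0.14, adjusted p = 0.0703, and 0.00953 without mouse 11). Over the 19 tested heat shock and unfolded protein response genes the median was -0.07 with 0 calls from 12 mice, and without mouse 11 it was 0.03 with 4 of the 19 lower (Hspa5, Hsp90b1, Pdia4 and Sdf2l1), against 4.27% of all genes tested.

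Of the Nrf2 targets lower without mouse 11, Gclc, the catalytic subunit of glutathione synthesis, was at 296, 371 and 619 CPM with Corexit 9527 and at 181, 223 and 272 CPM with 9527+oil (-0.89 ± 0.20, adjusted p = 0.087, and 0.00716 without mouse 11). Of 7 tested mesothelial markers, 0 passed with 12 mice, and 5 were higher and Msln lower without mouse 11, against 2.55% higher and 4.27% lower of all genes tested. Erythroid and platelet genes lay higher in 10 of 11 with 0 calls, and their summed level was 447 to 6330 CPM with Corexit 9527 and 4200 to 9720 CPM with 9527+oil.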
